A study of Mus musculus with 18 samples.

Results

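*Hif3a* and 9 further genes of the hypoxia response were followed in mouse cortex lacking either of the neuronal splicing regulators NOVA1 and NOVA2. The 10 genes, out of 23038 gene symbols in the table, were *Hif3a*, *Hif1a*, *Epas1*, *Arnt*, *Arnt2*, *Egln1*, *Egln2*, *Egln3*, *Vhl* and *Vegfa*, and all 10 passed the filter on low counts. *Hif3a* was chosen by its rise in *Nova1-/-* cortex, so its values in those mice are given as a description without a test, and the other genes were added for their known roles beside it. RNA came from the cortex of CD1 embryos at day 18.5, with no treatment named, in 4 groups of 3: *Nova2-/-* with wild-type littermates of their own, and *Nova1-/-* with a separate set of wild-type littermates. Both null alleles are germline and were bred into CD-1 from a B57B/6 background. The *Nova2* allele carries an IRES-Cre cassette, so the null mice also carry Cre at that locus. The paper describes the cassette as replacing the first exon and, in its methods, as placed ahead of the start codon in the first coding exon. Values are from whole cortex, in which fewer cells of a type and less RNA per cell cannot be told apart.

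Cells sense oxygen through a short chain of proteins. HIF alpha subunits (*Hif1a*, *Epas1*, *Hif3a*) are hydroxylated when oxygen is present by the prolyl hydroxylases *Egln1*, *Egln2* and *Egln3*, bound by the *Vhl* ubiquitin ligase and degraded. When oxygen falls they persist, pair with *Arnt* or its neuronal relative *Arnt2*, and bind a short element near genes for glucose uptake, glycolysis and vessel growth, of which *Vegfa* is the best known. HIF3A exists in several forms, some of which oppose the other alpha subunits, and it is itself induced in hypoxia. Because the alpha subunits are governed mainly at the protein level, their RNA levels do not report how active the pathway is.

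The promoter windows of 4 genes on which the results turn are shown, since HIF acts through a short element whose core, ACGTG or GCGTG, can be looked for in them. It was searched on both strands (read from the other strand as CACGT or CACGC). Each window is the 250 bases upstream of a RefSeq start site in GRCm38.p6, 5′ to 3′ on the strand of the gene, with the core in capitals. *Hif3a* (chr7:17062428-17062677, minus strand) encodes the third HIF alpha subunit, *Slc2a1* (chr4:119108495-119108744, plus strand) the glucose transporter GLUT1, *Kdr* (chr5:75978456-75978705, minus strand) a VEGF receptor and *Vegfa* (chr17:46032378-46032627, minus strand) its ligand.
Hif3a: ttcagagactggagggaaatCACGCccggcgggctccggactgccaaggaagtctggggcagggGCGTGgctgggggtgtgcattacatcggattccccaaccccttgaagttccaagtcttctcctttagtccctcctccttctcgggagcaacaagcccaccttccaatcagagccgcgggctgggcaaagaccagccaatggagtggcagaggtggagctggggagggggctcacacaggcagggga
Slc2a1: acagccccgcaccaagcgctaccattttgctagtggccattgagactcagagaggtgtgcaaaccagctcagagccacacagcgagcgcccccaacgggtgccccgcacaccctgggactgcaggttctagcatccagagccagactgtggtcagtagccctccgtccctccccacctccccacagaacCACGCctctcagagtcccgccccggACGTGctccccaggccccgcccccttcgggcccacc
Kdr: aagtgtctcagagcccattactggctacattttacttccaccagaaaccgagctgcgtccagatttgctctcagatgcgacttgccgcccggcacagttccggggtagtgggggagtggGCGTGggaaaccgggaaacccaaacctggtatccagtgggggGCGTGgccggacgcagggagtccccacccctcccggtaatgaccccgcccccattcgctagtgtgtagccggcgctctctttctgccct
Vegfa: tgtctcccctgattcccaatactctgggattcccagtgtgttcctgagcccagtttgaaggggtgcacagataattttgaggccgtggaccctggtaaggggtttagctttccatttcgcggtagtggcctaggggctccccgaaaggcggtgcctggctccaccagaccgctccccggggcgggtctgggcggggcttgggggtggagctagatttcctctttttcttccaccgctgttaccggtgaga
The *Hif3a* window held 2 cores, starting 230 and 186 bases upstream of the start site. The *Slc2a1* window also held 2, at 61 and 36 bases, and so did that of *Kdr*, at 131 and 89 bases. The *Vegfa* window shown held 0. The window of a further *Vegfa* start site (chr17:46025164-46025413), not shown, held 2, at 218 and 211 bases. That window lies inside the span of the gene itself, and it is counted among the member windows. The core was present in 8 of 11 windows of the members (72.7%, from 9 genes with an entry) and in 22 of 27 windows of glycolytic HIF targets (81.5%), against 12679 of all 32851 windows (38.6%), with no matching for base composition. A match of these letters is a description and does not show that a factor binds there.

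Total expected counts ranged from 16518149 to 31361972 per mouse. The genotype check was met for *Nova1*, with 3, 1 and 5 counts in the 3 *Nova1-/-* mice. *Nova2* RNA was lower but not absent, with 17.0 to 21.6 CPM (counts put on an equal library size after TMM scaling) in *Nova2-/-* mice and 31.5 to 40.8 CPM in their littermates. The paper's Western blot found no NOVA2 protein in newborn *Nova2-/-* cortex. Wild-type replicate 3 of the *Nova2* litters stood apart from its group: leaving it out raised the number of genes called in the *Nova2-/-* comparison from 166 to 1433. Cortical neurons were abundant in every library, with summed neuronal markers of 3347 to 4155 CPM.

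Compared per length, as RPKM (CPM per kilobase of exon), the members spanned a wide range in wild-type cortex. In the wild-type littermates of *Nova2-/-* mice the levels ran from *Hif1a* at 51.6 ± 5.49 RPKM (SD, n = 3) and *Arnt2* at 43.6 ± 10.5 RPKM through *Vhl* at 24.6, *Egln2* at 19.0, *Egln1* at 17.0 and *Vegfa* at 11.1 RPKM down to *Egln3* at 3.67, *Arnt* at 3.52, *Epas1* at 2.57 and *Hif3a* at 0.689 ± 0.128 RPKM. In that order the ranges over mice overlapped between *Hif1a* and *Arnt2*, between *Egln3* and *Arnt* and between *Arnt* and *Epas1*, and the other neighbours did not overlap. The most abundant alpha subunit was thus *Hif1a* and the most abundant partner *Arnt2*. *Hif3a* had the lowest mean of the 10 genes in all 4 groups, at 0.649 RPKM in wild-type mice of the *Nova1* litters, 1.41 RPKM in *Nova2-/-* and 1.59 RPKM in *Nova1-/-* mice. *Vegfa* moved from sixth place in both wild-type groups to the fourth in *Nova2-/-* cortex, at 21.8 ± 2.05 RPKM, where its range overlapped that of *Vhl*.

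*Hif3a*, the least abundant member, was higher in both knockouts. In the wild-type mice its level was 3.96, 5.60 and 4.32 CPM, from 100, 93 and 129 counts. The 3 *Nova2-/-* mice had 9.51, 8.42 and 10.5 CPM, from 214, 188 and 236 counts. All 3 knockouts lay above all 3 littermates, and the lowest knockout was 1.5 times the highest wild-type. The log2 fold change was 1.05 (SE 0.178, 95% interval 0.65 to 1.46, adjusted p = 0.0385 by the quasi-likelihood test of edgeR over 15691 genes), a ratio of 2.08. These mice took no part in the choice of the gene. *Hif3a* ranked 112 by p. It also passed with DESeq2 (adjusted p = 0.00012), and missed the threshold when replicate number was added to edgeR's fit as a block. The direction was the same with any 1 mouse left out, with log2 fold changes of 0.95 to 1.20, but the call was not: the adjusted p was 0.0138 without wild-type replicate 3, and 0.112 and 0.078 without wild-type replicates 1 and 2 and 0.186, 0.13 and 0.158 without *Nova2-/-* replicates 1, 2 and 3.

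In the *Nova1* litters, the samples on which it was selected, *Hif3a* had 3.92, 4.76 and 4.39 CPM in wild-type mice, from 111, 114 and 138 counts. The *Nova1-/-* mice had 9.22, 10.6 and 12.2 CPM, from 248, 313 and 290 counts. Here too the groups were apart, with the lowest knockout at 1.93 times the highest wild-type. The mean rose from 4.36 ± 0.421 to 10.7 ± 1.52 CPM (SD, n = 3), a ratio of 2.45, and the log2 fold change was 1.29 and ranged from 1.19 to 1.39 as single mice were omitted. The wild-type mice of the litter sets had like levels, 3.92 to 4.76 CPM against 3.96 to 5.60 CPM.

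**Figure D1:**
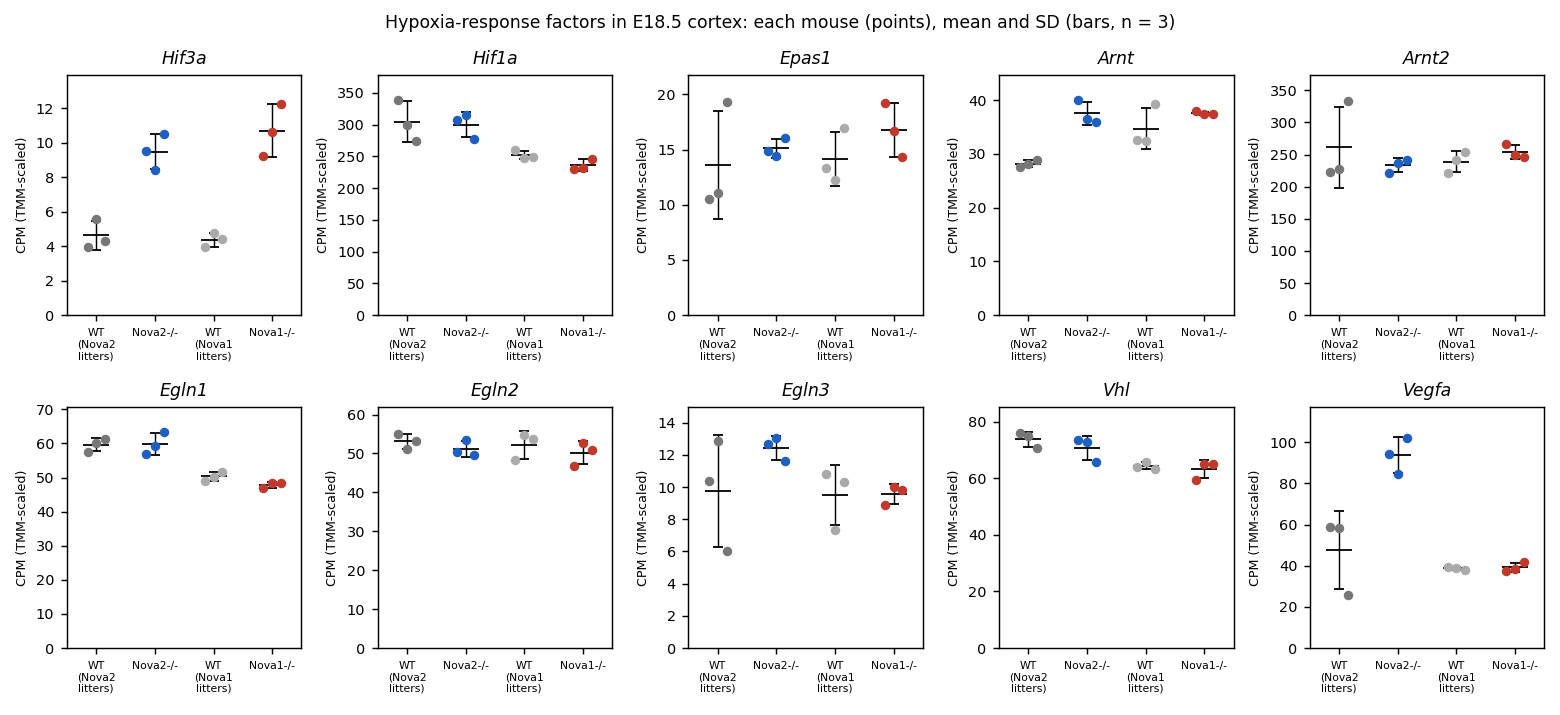
Level of each of the 10 genes in CPM (linear axes from 0), in 1 panel per gene. Points are mice, and bars give the mean and SD of 3 mice in wild-type cortex of the Nova2 litters, Nova2-/- cortex, wild-type cortex of the Nova1 litters and Nova1-/- cortex. Hif3a is above its littermates in both knockouts, at 8.42 to 10.5 CPM and 9.22 to 12.2 CPM, while Vegfa is above them in Nova2-/- cortex, at 84.7 to 102.2 CPM, and overlaps them in Nova1-/- cortex.

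In *Nova2-/-* cortex, 1 of the 10 members passed an FDR of 0.05, namely *Hif3a*, against 1.06% of all genes tested in either direction and 0.695% called higher. The same gene was the 1 member past both an FDR of 0.05 and a log2 fold change of 1 in size, which 0.261% of all genes passed. Members with an unadjusted p below 0.05 numbered 3 of 10, *Hif3a*, *Arnt* and *Vegfa*, beside 19.2% of all genes. The same 3 were those whose mice did not overlap their littermates and lay above them, as did 12.5% of all genes. No member lay wholly below its littermates, where 14% of all genes did. The median log2 fold change of the 10 members was 0.085, beside 0.0092 for all genes tested. With DESeq2 2 members passed, *Hif3a* and *Arnt*, and with edgeR's exact test 3, against 5.3% and 3.98% of all genes.

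In *Nova1-/-* cortex, 0 of the 9 other members had an unadjusted p below 0.05, beside 7.44% of all genes. With edgeR's quasi-likelihood test 0 passed, and 0 did with DESeq2 or edgeR's exact test. The share of all genes called there was 0.0126%, so that a count of 0 says little about the members. *Hif1a* and *Egln1* lay below all 3 littermates, as 6.80% of all genes did, and none of these 9 lay above them, as 6.69% did. *Hif3a*, selected on these mice, is left out of that count. The median log2 fold change of these 9 was 0.0048, beside 0.0018 for all genes tested.

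**Figure D2:**
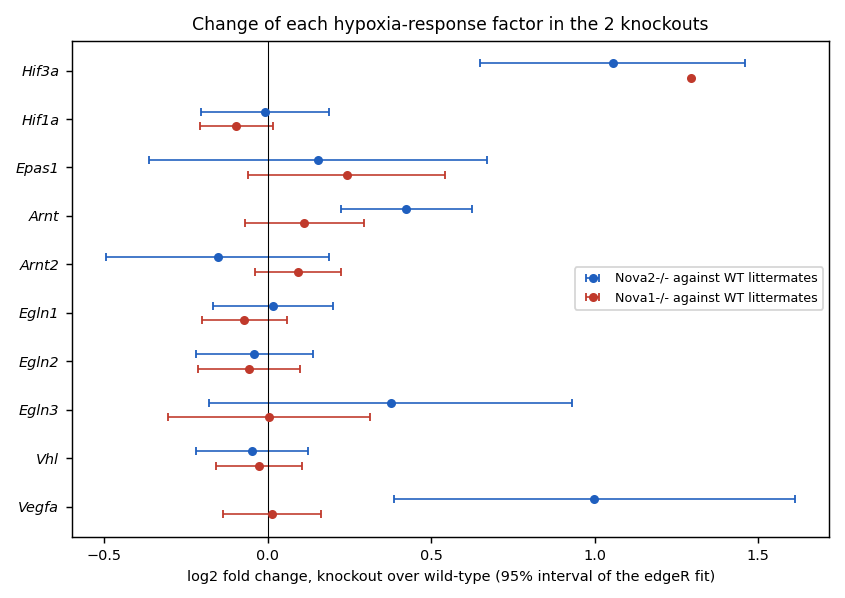
Log2 fold change of each member, knockout over wild-type littermates, in Nova2-/- (blue) and Nova1-/- (red) cortex. Bars are 95% intervals of the edgeR fit over 3 mice a group; Hif3a in Nova1-/- cortex, on which it was selected, is shown without one. Hif3a stands at 1.05 and 1.29 and Vegfa at 0.999 and 0.012, and the intervals of Hif1a, Epas1, Arnt2, Egln1, Egln2, Egln3 and Vhl include 0 in both.

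Of the other alpha subunits, *Hif1a*, the broadly expressed mediator of the acute response, had 338.8, 299.7 and 274.6 CPM in wild-type littermates and 307.2, 315.4 and 277.9 CPM in *Nova2-/-* mice. The groups overlapped, and the log2 fold change was -0.0079 (95% interval -0.20 to 0.19, edgeR's adjusted p = 0.975). Among the *Nova1* litters *Hif1a* was 259.9, 247.5 and 249.2 CPM in wild-type and 229.5, 231.7 and 246.5 CPM in *Nova1-/-* mice, a log2 fold change of -0.096 (95% interval -0.21 to 0.015, edgeR's adjusted p = 0.706). *Epas1*, the alpha subunit best known from endothelial cells, was lower and more variable. It had 10.5, 11.1 and 19.3 CPM in wild-type littermates and 14.9, 14.4 and 16.1 CPM in *Nova2-/-* mice, so that wild-type replicate 3 alone exceeded the knockouts. The log2 fold change of *Epas1* was 0.15 (SE 0.227, edgeR's adjusted p = 0.755), and without that replicate it was 0.51 (adjusted p = 0.0314). For *Nova1* loss the log2 fold change of *Epas1* was 0.24 (SE 0.138, edgeR's adjusted p = 0.738).

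The partners differed from each other. *Arnt*, which encodes HIF1 beta, was tight in the wild-type littermates of the *Nova2* litters, at 27.6, 28.1 and 28.8 CPM. The *Nova2-/-* mice had 40.1, 36.5 and 36.0 CPM, all above them, with a log2 fold change of 0.42 (SE 0.0882, 95% interval 0.22 to 0.63, edgeR's adjusted p = 0.0679). This missed the threshold in edgeR's quasi-likelihood test and passed with DESeq2 (adjusted p = 0.00604), and without wild-type replicate 3 it also passed (0.45, adjusted p = 0.0182). Those wild-type mice were the low ones of the series for *Arnt*: wild-type mice of the *Nova1* litters had 32.6, 32.3 and 39.2 CPM and *Nova1-/-* mice 37.9, 37.4 and 37.3 CPM, a log2 fold change of 0.11 (SE 0.0836, edgeR's adjusted p = 0.817). *Arnt2*, the relative found mainly in neurons, had 222.3, 227.4 and 333.7 CPM in wild-type littermates and 220.6, 237.4 and 241.5 CPM in *Nova2-/-* mice. Its log2 fold change was -0.15 (SE 0.149, edgeR's adjusted p = 0.617) and turned to 0.068 without wild-type replicate 3. With *Nova1* lost it was 0.093 (SE 0.0601, edgeR's adjusted p = 0.781).

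The oxygen sensors and the ubiquitin ligase did not pass the test in either knockout. *Egln1*, the main hydroxylase that marks HIF1A, was 57.5, 60.2 and 61.3 CPM in wild-type littermates and 57.0, 59.3 and 63.3 CPM in *Nova2-/-* mice. Its log2 fold change had a 95% interval of -0.17 to 0.20 there and of -0.20 to 0.057 in *Nova1-/-* mice. *Egln2*, which is little affected by oxygen at the RNA level, ranged over all 12 mice from 46.9 to 55.0 CPM, with intervals of -0.22 to 0.14 and -0.21 to 0.10. *Vhl* ranged from 59.5 to 75.9 CPM, with intervals of -0.22 to 0.12 in *Nova2-/-* and -0.16 to 0.10 in *Nova1-/-* mice. For these 3 genes a change of more than 0.22 on the log2 scale lies outside both intervals. *Egln3*, itself a strongly hypoxia-induced gene, was less well bounded, with 10.4, 12.9 and 6.03 CPM in wild-type littermates and 12.7, 13.0 and 11.6 CPM in *Nova2-/-* mice. Its log2 fold change was 0.38 (95% interval -0.18 to 0.93, edgeR's adjusted p = 0.439) in *Nova2-/-* and 0.0048 (95% interval -0.30 to 0.31, edgeR's adjusted p = 0.996) in *Nova1-/-* cortex.

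*Vegfa*, the secreted growth factor for vessels, had 58.8, 58.1 and 25.7 CPM in wild-type littermates and 94.2, 84.7 and 102.2 CPM in *Nova2-/-* mice. Every knockout was above every littermate, and wild-type replicate 3 was the lowest of all 12 mice. The log2 fold change was 0.999 (SE 0.269, 95% interval 0.39 to 1.61), and with this spread it missed the threshold (edgeR's adjusted p = 0.111). Without wild-type replicate 3 the log2 fold change fell to 0.70 and passed (adjusted p = 0.00262), and with all 12 mice in 1 fit it was 0.99 (adjusted p = 0.0146). Across the *Nova1* litters *Vegfa* was 39.4, 39.1 and 38.0 CPM in wild-type and 37.4, 38.3 and 41.7 CPM in *Nova1-/-* mice. There the log2 fold change was 0.012 (SE 0.0683, 95% interval -0.14 to 0.16, edgeR's adjusted p = 0.977). The difference between the knockouts' changes in *Vegfa* was 0.97 (SE 0.303, edgeR's adjusted p = 0.112) and, without wild-type replicate 3 of the *Nova2* litters, 0.68 (adjusted p = 0.00147).

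For the difference between the knockouts' changes, 0 of the 9 members other than *Hif3a* passed edgeR's quasi-likelihood test, against 1.83% of all genes. The unadjusted p was below 0.05 for 2, *Arnt* and *Vegfa*, and with DESeq2 0 passed, against 5.17% of all genes. The wild-type mice of the litter sets were compared to show how far members differ without a genotype. Here too 0 of 9 passed, against 3.03% of all genes, and *Hif1a*, *Arnt*, *Egln1* and *Vhl* had an unadjusted p below 0.05. DESeq2 and edgeR's exact test called 0, against 8.32% and 7.26% of all genes. The share of all genes with an unadjusted p below 0.05 was not counted for either comparison, so those counts say little about the members. Mouse line, litter and library preparation cannot be told apart in that comparison.

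HIF target genes outside the 10 were then examined, and they were higher in *Nova2-/-* than in wild-type cortex more often than lower. Of 19 glycolytic targets, 16 had a positive log2 fold change, beside 51.8% of all genes tested, and the median was 0.22 beside 0.0092. At an FDR of 0.05, 2 of them rose, *Slc2a1* and *Hk2*, beside 0.695% of all genes, with 0 lower. Of 22 other targets tested, 20 were positive, the median was 0.32, and 2 rose, *Ddit4* and *Kdm3a*, with 0 lower. Each of these lists had 8 genes with an unadjusted p below 0.05, beside 19.2% of all genes. Summed, the glycolytic targets were 2557, 2549 and 2037 CPM in wild-type littermates, with replicate 3 the low one, and 2750, 2687 and 2801 CPM in *Nova2-/-* mice. Without that replicate 16 of 19 and 18 of 22 were positive, with medians of 0.21 and 0.24, and 6 and 4 rose. In that fit 9.03% of all genes were called in either direction. With any other mouse of the comparison left out, the calls of both lists were lost and their medians stayed above 0. Of 9 VEGF ligands and receptors, *Kdr* rose, and the median was 0.21. The lists show their members' counts and medians only, and the genes in a list share mice and regulators.

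*Slc2a1*, the glucose transporter of the blood-brain barrier and a classic HIF target, was 48.7, 49.1 and 46.9 CPM in wild-type littermates. In *Nova2-/-* mice it was 69.3, 66.8 and 77.0 CPM, which is above every other mouse of the series. The log2 fold change was 0.57 (SE 0.0843, edgeR's adjusted p = 0.0321). In the *Nova1* litters *Slc2a1* was 34.8, 38.1 and 31.6 CPM in wild-type and 37.4, 49.5 and 45.9 CPM in *Nova1-/-* mice, which overlap, with a log2 fold change of 0.35 (SE 0.104, edgeR's adjusted p = 0.505). *Slc2a1* also differed between the wild-type groups, by -0.46 in *Nova1* relative to *Nova2* litters (SE 0.0944, edgeR's adjusted p = 0.0405).

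*Hk2*, the inducible hexokinase of the first step of glycolysis, was 6.46, 5.96 and 5.66 CPM in wild-type littermates and 12.4, 9.99 and 11.1 CPM in *Nova2-/-* mice, again without overlap. Its log2 fold change was 0.90 (SE 0.141, edgeR's adjusted p = 0.0332). All 6 mice of the *Nova1* litters lay between 4.59 and 5.60 CPM. *Ddit4*, a hypoxia-induced inhibitor of mTORC1 signalling, was 23.6, 22.0 and 18.2 CPM in wild-type littermates and 36.4, 34.8 and 40.8 CPM in *Nova2-/-* mice, a log2 fold change of 0.82 (SE 0.119, edgeR's adjusted p = 0.0303). In *Nova1-/-* mice *Ddit4* was 21.2, 24.8 and 26.8 CPM, above the 18.6, 20.8 and 20.1 CPM of their littermates, with a log2 fold change of 0.29 that did not pass (SE 0.0989, edgeR's adjusted p = 0.548).

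*Kdm3a*, an oxygen-dependent histone demethylase, was 136.1, 129.5 and 104.2 CPM in wild-type littermates and 190.4, 191.1 and 190.9 CPM in *Nova2-/-* mice. Its log2 fold change was 0.64 (SE 0.0947, edgeR's adjusted p = 0.032). Some targets did not pass. *Slc16a3*, the lactate exporter MCT4, was 2.85, 3.37 and 0.971 CPM in wild-type littermates and 8.67, 6.72 and 8.25 CPM in *Nova2-/-* mice, a log2 fold change of 1.77 (SE 0.378, edgeR's adjusted p = 0.0714). *Higd1a*, a mitochondrial protein of the hypoxia response, had a log2 fold change of 0.45 (edgeR's adjusted p = 0.0756). As with *Hif3a*, the calls of *Slc2a1*, *Hk2*, *Ddit4*, *Kdm3a* and *Kdr* were lost in 5 of the 6 fits that left out 1 mouse. They held in the fit without wild-type replicate 3, with log2 fold changes of 0.55, 0.86, 0.72, 0.54 and 0.86, and passed with DESeq2 on all 6 mice.

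**Figure D3:**
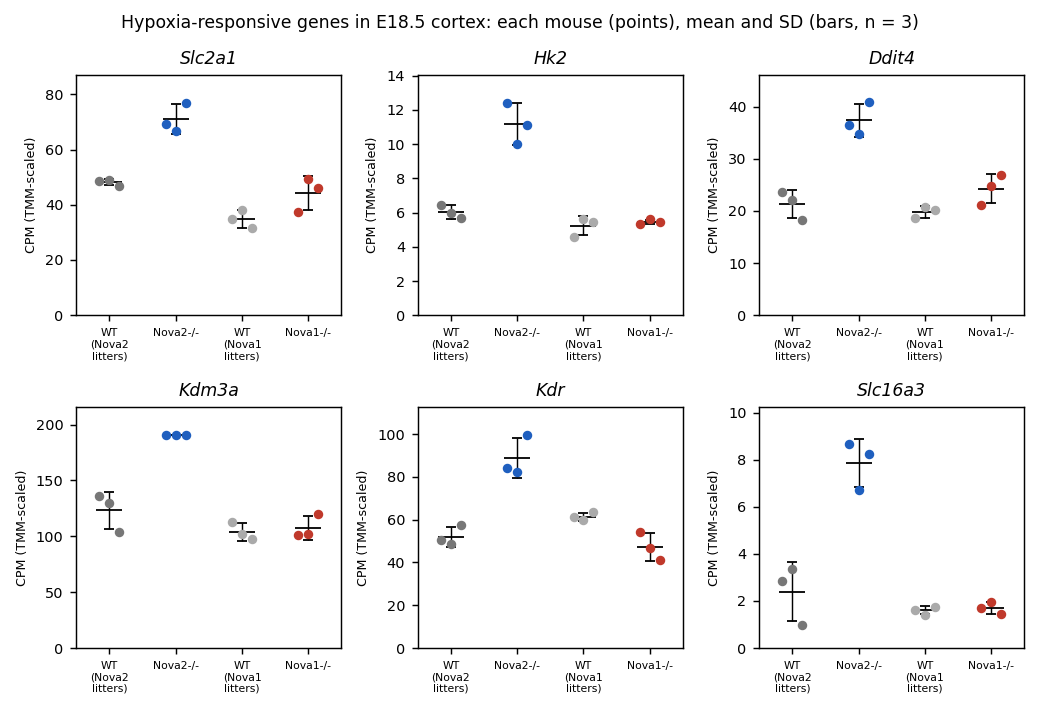
Level in CPM (linear axes from 0) of 6 hypoxia-responsive genes in each mouse, with the mean and SD of 3 mice a group. In Nova2-/- cortex all 3 mice lie above their littermates for each gene, for instance 9.99 to 12.4 CPM against 5.66 to 6.46 CPM for Hk2; Slc16a3 did not pass the test. In Nova1-/- cortex Kdr lies below its littermates, at 41.1 to 54.2 CPM against 59.7 to 63.5 CPM.

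The target lists had medians below 0 in *Nova1-/-* cortex. With edgeR's quasi-likelihood test 0 of 19 glycolytic targets and 0 of 22 other targets passed, as did 0 with DESeq2 and 0 with edgeR's exact test. Of all genes 0.0126%, 0.208% and 0.34% passed these tests, so that counts of 0 say little about the targets. The unadjusted p was below 0.05 for 6 and 4 of them, beside 7.44% of all genes. Among the glycolytic targets 7 were positive, with a median of -0.048, and among the others 8 were positive, with a median of -0.059. The genes with the smallest p were *Slc2a1*, at 0.35, and the glycolytic enzymes *Eno1* (-0.27, edgeR's adjusted p = 0.508) and *Tpi1* (-0.16, edgeR's adjusted p = 0.548). Among the other targets they were *Hmox1*, the heme oxygenase (0.55, edgeR's adjusted p = 0.515), *Ddit4* and *P4ha1*, a collagen prolyl hydroxylase (-0.15, edgeR's adjusted p = 0.656). These medians stand beside log2 fold changes of *Hif3a* of 1.05 in *Nova2-/-* and 1.29 in *Nova1-/-* cortex.

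Of the VEGF receptors, *Kdr* differed between the knockouts. *Kdr*, the main signalling receptor for VEGFA on endothelial cells, was 50.5, 48.5 and 57.4 CPM in wild-type littermates and 84.3, 82.3 and 99.4 CPM in *Nova2-/-* mice, a log2 fold change of 0.78 (SE 0.105, edgeR's adjusted p = 0.0239). In the *Nova1* litters it was 61.1, 59.7 and 63.5 CPM in wild-type and 54.2, 47.0 and 41.1 CPM in *Nova1-/-* mice, so that the knockouts were the lower group. This log2 fold change was -0.37 (SE 0.0898) and did not pass edgeR's quasi-likelihood test (adjusted p = 0.422), though it did with DESeq2 (adjusted p = 0.0465). The change of *Kdr* in *Nova2-/-* minus that in *Nova1-/-* cortex was 1.14 (SE 0.145, edgeR's adjusted p = 0.00193), and it passed with each of the 12 mice left out. *Flt1*, a VEGF receptor that also acts as a decoy, had a log2 fold change of 0.69 in *Nova2-/-* cortex (SE 0.134, edgeR's adjusted p = 0.0567). Among the ligands, *Figf*, which encodes VEGFD, had -0.79 (SE 0.441, edgeR's adjusted p = 0.364).

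**Figure D4:**
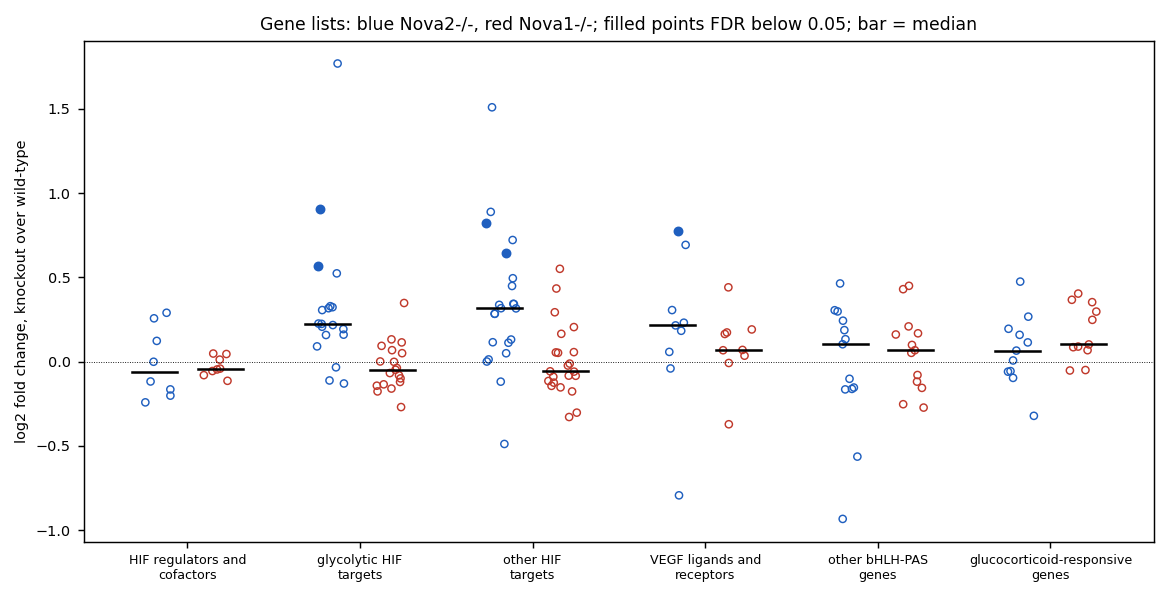
Log2 fold change, knockout over wild-type littermates, of every tested gene in 6 lists, in Nova2-/- (blue) and Nova1-/- (red) cortex. Points are genes, filled where FDR is below 0.05, and black bars are medians. The 5 filled points are Slc2a1, Hk2, Ddit4, Kdm3a and Kdr in Nova2-/- cortex, and the medians of the glycolytic and other HIF targets are 0.22 and 0.32 there and -0.048 and -0.059 in Nova1-/- cortex.

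Genes that act on HIF rather than answer to it were counted next. Among 8 regulators and cofactors, 0 passed in *Nova2-/-* cortex with edgeR's quasi-likelihood test, DESeq2 or edgeR's exact test. Beside 19.2% of all genes, 4 of the 8 had an unadjusted p below 0.05. These were *Cul2* (-0.20, edgeR's adjusted p = 0.18), *Tceb1* (-0.24, 0.211) and *Tceb2* (-0.16, 0.219), the scaffold and elongins of the VHL ligase, and the coactivator *Ep300* (0.26, 0.221). Without wild-type replicate 3, 3 of the 8 passed, beside 9.03% of all genes: *Tceb1* (-0.32), *Ep300* (0.37) and the coactivator *Crebbp* (0.51). For *Nova1* loss 0 of the 8 passed in any of the 3 tests, and 0 had an unadjusted p below 0.05, beside 7.44% of all genes.

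Among 13 other genes of the bHLH-PAS family, to which the HIF subunits belong, 0 passed edgeR's quasi-likelihood test or edgeR's exact test in either knockout. The unadjusted p was below 0.05 for 3 in each, beside 19.2% of all genes in *Nova2-/-* and 7.44% in *Nova1-/-* cortex. DESeq2 called 1 lower in *Nova2-/-*, *Npas1* (adjusted p = 0.0454), and 0 in *Nova1-/-* cortex. In *Nova2-/-* mice the smallest p belonged to *Npas1*, a factor of inhibitory neurons (-0.56, SE 0.157, edgeR's adjusted p = 0.12), and the clock genes *Per2* and *Per3* were at 0.30 and 0.46 (adjusted p = 0.224 and 0.243). In *Nova1-/-* mice it belonged to the clock gene *Per1* (0.45, SE 0.118, edgeR's adjusted p = 0.435), followed by *Ahr* (-0.25), the dioxin receptor, and its repressor *Ahrr* (0.43).

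Glucocorticoid-responsive genes were also counted. In *Nova1-/-* cortex 9 of 11 were positive, beside 50.6% of all genes, with a median of 0.10 beside 0.0018. Here 0 passed edgeR's quasi-likelihood test, DESeq2 or edgeR's exact test, and 5 had an unadjusted p below 0.05, beside 7.44% of all genes: *Fkbp5* (0.25, SE 0.0702, edgeR's adjusted p = 0.503), *Zbtb16* (0.37), *Mt2* (0.30), *Sult1a1* (0.35) and *Pdk4* (0.40). In *Nova2-/-* cortex 0 of 11 passed in any of these tests, 0 had an unadjusted p below 0.05, beside 19.2% of all genes, and the median was 0.065. *Fkbp5*, an FK506-binding protein induced by glucocorticoids, differed between the wild-type groups, by -0.42 in *Nova1* relative to *Nova2* litters (SE 0.0889, edgeR's adjusted p = 0.0431).

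Markers of other cell types moved with the *Nova2* genotype. All 12 meningeal fibroblast markers were higher in *Nova2-/-* cortex, with a median log2 fold change of 1.34, and *Col1a1*, *Dcn* and *Ogn* passed the test. Their summed level was 289.4, 361 and 748 CPM in wild-type littermates and 1325, 1241 and 1194 CPM in *Nova2-/-* mice. The wild-type mice of the *Nova1* litters, however, had 1110 to 1419 CPM and *Nova1-/-* mice 956.5 to 1128 CPM, so it is the wild-type littermates of *Nova2-/-* mice that were low among the 12. In *Nova1-/-* mice all 12 markers had a negative log2 fold change. Of them 0 passed edgeR's quasi-likelihood test, DESeq2 or edgeR's exact test, and 5 had an unadjusted p below 0.05, beside 7.44% of all genes. Wild-type replicate 3 of the *Nova2* litters had the highest meningeal sum of its group, at 748 CPM, and the lowest *Vegfa*.

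Summed endothelial markers, which include *Kdr* and *Flt1*, were 302.8 to 352.4 CPM in wild-type littermates and 372.3 to 399.9 CPM in *Nova2-/-* mice, with 1 of 12 past the test, *Kdr*. The log2 fold change was positive for 10 of the 12 and negative for 2, with a median of 0.19. *Kdr* (0.78) and *Flt1* (0.69) had the largest. Pericyte markers summed to 142.3 to 184.4 and 224 to 231.7 CPM, with 1 of 8 past the test, *Abcc9*. Endothelial sums in the *Nova1* litters were 322.7 to 341.8 CPM in wild-type and 295 to 321.2 CPM in knockout mice, and pericyte sums 191.8 to 209.3 and 186.3 to 191.5 CPM. Astroglial sums were 1378 to 1614 and 1561 to 1645 CPM in the *Nova2* comparison, with 1 of 9 past the test, *Gja1*, and microglial sums 65.1 to 71.8 and 71.2 to 89.4 CPM, with 0 of 8 past edgeR's quasi-likelihood test (1 at an unadjusted p below 0.05, and 1 with DESeq2 and with edgeR's exact test). Erythroid and choroid plexus sums overlapped between genotypes, at 145.2 to 323.8 and 234.8 to 372.3 CPM and at 813.6 to 1204 and 107.6 to 1540 CPM. No marker was at 0 in all mice of the *Nova2* litters. The part of these cell types in the higher *Hif3a*, *Vegfa*, *Kdr* and target genes was not tested.

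**Figure D5:**
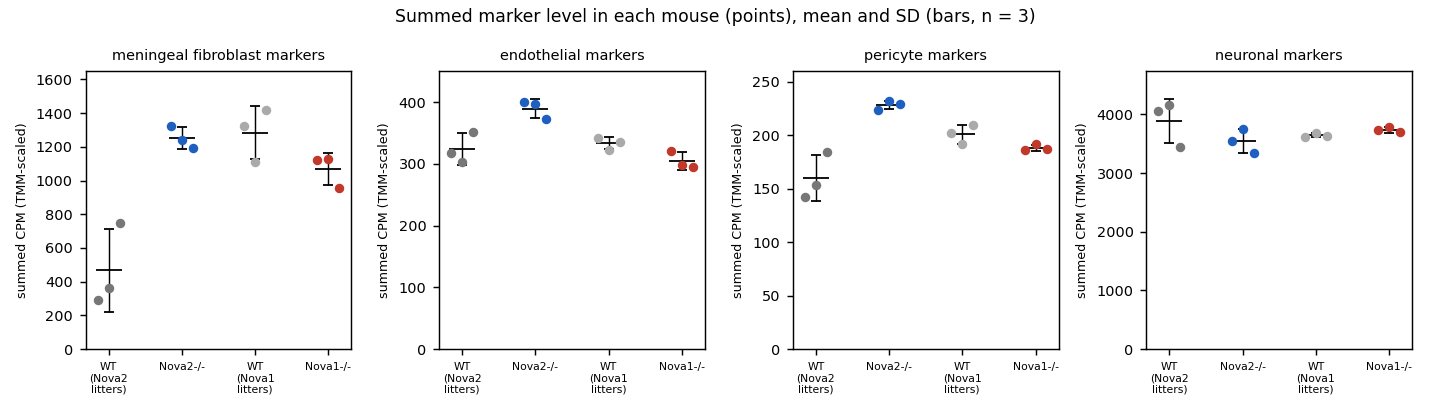
Summed level in CPM (linear axes from 0) of meningeal fibroblast, endothelial, pericyte and neuronal markers in each mouse, with the mean and SD of 3 mice a group. Meningeal sums are 289.4 to 748 CPM in wild-type littermates of Nova2-/- mice and 956.5 CPM or more in the other groups, while neuronal sums lie between 3347 and 4155 CPM throughout.

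The genes whose pattern over the 12 mice was most like that of *Hif3a* were found from log2 CPM centred on the mean of each litter set, over 16209 genes. They were *Myo18b* (Pearson's r = 0.95), a muscle-type myosin, *Gramd1c* (0.908), *Eif2ak4* (0.903), the amino acid sensor GCN2, *Cd1d1* (0.882) and *Slc2a1* (0.88). Of these, *Slc2a1* passed the test in *Nova2-/-* cortex and none passed in *Nova1-/-* cortex. For *Myo18b* the log2 fold changes were 0.51 and 0.57 (edgeR's adjusted p = 0.172 and 0.485). The genes most like *Vegfa* were *Serac1* (0.987), *Slc16a3* (0.969), *P4ha1* (0.968), *AI450353* (0.962) and *Lrrc9* (0.961), of which *Slc16a3* and *P4ha1* are HIF targets. *P4ha1* was 77.5, 77.2 and 39.5 CPM in wild-type littermates and 129, 116.1 and 110.3 CPM in *Nova2-/-* mice, with wild-type replicate 3 the lowest, as for *Vegfa*. Between *Hif3a* and *Vegfa* themselves r was 0.539, and 0.306 when each of the 4 groups was centred on its own mean. These values share the same mice and libraries and the genotype difference, and are descriptive.

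*Hif3a* lies near *Nova2*. In GRCm38.p6 *Hif3a* spans 17030993 to 17062427 on chromosome 7 and *Nova2* spans 18925888 to 18965319 on the same chromosome, a gap of 1.86 Mb. Of 66 tested genes within 5 Mb of *Nova2*, a window chosen after the values were seen, 5 passed an FDR of 0.05 in *Nova2-/-* cortex (7.58%, beside 1.06% of all genes). *Hif3a*, itself counted among the 5, and *Gipr* (1.27) were higher and *Gm19345* (-1.58), *Opa3* (-0.58) and *Pglyrp1* (-1.65) were lower. Of 14 tested genes within 5 Mb of *Nova1*, on chromosome 12, 0 passed in *Nova1-/-* cortex, where 0.0126% of all genes did. The *Nova2* mutation and any other variant carried on the targeted chromosome segment cannot be told apart in these mice. The 12 tested genes within 0.3 Mb of *Hif3a* did not pass edgeR's quasi-likelihood test in either knockout. *Ppp5c*, which lies 3079 bases away, had log2 fold changes of -0.051 and 0.0088. The neighbours with the smallest adjusted p in *Nova2-/-* cortex were *Ccdc8* (0.70, edgeR's adjusted p = 0.0811), *Psg16* (-1.19, 0.082) and *Prkd2* (0.96, 0.0892), which had -0.099, 0.20 and 0.29 in *Nova1-/-* cortex. The next members along, *Egln2* on chromosome 7 at 8.19 Mb from *Nova2* and *Egln3* on chromosome 12 at 7.36 Mb from *Nova1*, did not pass there either.

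The 1991 splicing events that the authors list as NOVA2-dependent were searched by gene symbol. None of the 10 members has an event among them. With 1991 events and 23038 gene symbols most genes have none, so this says little about the members. Among the other pathway genes, *Crebbp*, a HIF coactivator, has 1, *Pkm*, whose alternative exons set the form of pyruvate kinase, has 3, and *Npas3*, a neuronal bHLH-PAS factor, has 2.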

How the data were processed

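The authors extracted total RNA from cortex with Trizol, removed ribosomal RNA with Ribo-Zero, sequenced paired-end TruSeq libraries and aligned the reads to mm10 with OLego. They deposited expected counts per gene symbol for 12 cortex samples, without normalization; the counting program and annotation are not given in the sources used here. Further columns of the deposited table, not used here, give for each knockout a log2 fold change and an FDR (an adjusted p-value) that the authors computed. Of the deposited table of splicing events only the gene symbols were used. Midbrain and hindbrain abundance was not analysed here.

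Wild-type samples were assigned to litters from the replicate numbers in the labels and the study's methods. Expected counts were rounded, filtered (filterByExpr), TMM-scaled and tested with edgeR 4.0.16 in R 4.3.3, using the quasi-likelihood test on the 6 samples compared (12 for the difference between knockouts), with Benjamini-Hochberg adjustment over all genes and a threshold of 0.05. Intervals of log2 fold changes are 95% and use edgeR's degrees of freedom. RPKM used exon lengths of GENCODE vM1 (mm9); the positions and promoters are RefSeq's for GRCm38.p6. As alternatives, the filter was dropped or set to 10 counts in each sample, scaling was by upper quartile, DESeq2 1.42.0 was run, all 12 samples shared 1 fit, single samples were left out and a replicate block was added, and edgeR's exact test, added after seeing the data. The test was tested on simulated data. The members and gene lists were chosen with earlier results of these data known. Genes named are the members, the list genes past the threshold or with the 3 smallest p-values, and the 5 most correlated genes; *Pdk4*, *Sult1a1*, *Higd1a* and the genes near *Nova2* or *Hif3a* were in part chosen after their values were seen. Figures were drawn with matplotlib.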

Additional observations from a re-analysis of the deposited data

Results flagged for a closer look

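The knockouts' changes differed (*Nova2-/-* minus *Nova1-/-*) past an FDR of 0.05 in 4 genes of the hypoxia lists, by edgeR's quasi-likelihood test of the difference over 12 mice. These were 2 of 19 glycolytic targets, 1 of 22 other targets, 1 of 9 VEGF ligands and receptors and 0 of 8 regulators and cofactors. Of all genes tested, 1.83% passed. For *Kdr*, a VEGF receptor, the difference was 1.14 (SE 0.145, adjusted p = 0.00193), with 3 of 3 *Nova2-/-* mice above and 3 of 3 *Nova1-/-* mice below their littermates. For *Hk2*, a hexokinase, it was 0.824 (SE 0.181, adjusted p = 0.0362), for *Kdm3a*, a histone demethylase, 0.578 (SE 0.136, adjusted p = 0.0479), and for *Pdk1*, which limits entry of pyruvate into mitochondria, 0.411 (SE 0.0962, adjusted p = 0.0476). With each mouse left out in turn, *Kdr* passed in 12 of 12 fits, *Hk2* and *Kdm3a* in 4 of 12 and *Pdk1* in 3 of 12, with the direction kept in all. *Pdk1* was 66.3 to 72.9 CPM in wild-type littermates and 81.7 to 89.7 CPM in *Nova2-/-* mice, and 55.1 to 59.3 and 51.1 to 57.3 CPM in the *Nova1* litters. Summed endothelial markers moved in the same directions as *Kdr*, but *Kdr* is itself part of that sum, so the sum is no separate evidence. The part of endothelial cells was not tested.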

How the results depend on the processing

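Each arm holds 3 mice, and *Hif3a* has 93 to 313 counts a mouse. The number of members called in *Nova2-/-* cortex was 1; it was 2 with DESeq2, 3 with all 12 samples in 1 fit and with edgeR's exact test, 0 with the replicate block, and 0 to 4 with each mouse left out, 4 being without wild-type replicate 3. Between wild-type groups it was 3 with all 12 samples in 1 fit, where 9.81% of all genes were called. With a mouse left out it was 0 to 4 there, beside 0.0187% to 22.3% of all genes. For the difference between knockouts it was 0 to 1, beside 0.688% to 6.15% of all genes with a mouse left out. Deviations of same-numbered mice of the *Nova2* litters had correlations of 0.0918, -0.0272 and 0.124, and those of differently numbered mice -0.179 to 0.108. The labels name no litters, and these values cannot settle whether same-numbered mice were paired. Under the block *Hif3a* had 1.061 (edgeR's adjusted p = 0.0558). All genes called in *Nova2-/-* cortex numbered 166 (1.06%), and 832 (5.3%) with DESeq2 and 624 (3.98%) with edgeR's exact test. They were 1334 (8.23%) with all 12 samples in 1 fit, 220 (1.4%) with the replicate block and 7 to 1433 (0.0439% to 9.03%) with a mouse left out. For *Nova1-/-* cortex they were 2, and 33 and 54 with DESeq2 and the exact test.

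Small changes turned sign: *Hif1a* in *Nova2-/-* cortex was 0.0010 with upper-quartile normalization, and *Egln3* between wild-type groups 0.00018 without a filter. With each mouse left out, the ranges in *Nova2-/-* cortex were -0.074 to 0.071 (*Hif1a*), -0.011 to 0.51 (*Epas1*), -0.26 to 0.068 (*Arnt2*) and -0.028 to 0.052 (*Egln1*). For *Nova1-/-* cortex they were -0.14 to 0.11 (*Egln3*), -0.048 to 0.016 (*Vhl*) and -0.032 to 0.046 (*Vegfa*). Between wild-type groups they were -0.11 to 0.42 (*Epas1*), -0.23 to 0.10 (*Arnt2*), -0.061 to 0.044 (*Egln2*) and -0.26 to 0.23 (*Egln3*). For the difference they were -0.26 to 0.26 (*Epas1*), -0.034 to 0.073 (*Egln2*) and -0.066 to 0.034 (*Vhl*). The cause was not tested.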
